A study of Mus musculus with 20 samples.

Results

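Colorectal tumors of control ApcMin mice were compared with the tissue beside them, in 5 tumor and 5 adjacent RNA-seq libraries chosen by their labels out of the 20 libraries of the series. All 10 come from C57BL/6J mice aged 100 days with the genotype ApcMin/+, Erbb2f/f. The floxed Erbb2 allele is therefore carried by every control, and the cre transgene that would recombine it is absent. The other 10 libraries are tumors and adjacent tissue of Erbb2-deficient littermates, which add Tg(Vil1-cre), a cre recombinase driven by the Villin promoter of intestinal epithelial cells. The labels call the tissues colorectal tumor and adjacent non-tumor epithelium and name each library a biological replicate. They do not say how many mice or tumors a library holds, so p-values measure the spread between these libraries.

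ApcMin is a truncating allele of Apc, the scaffold of the complex that marks beta-catenin for destruction. When the remaining allele is lost in an intestinal epithelial cell, beta-catenin accumulates, binds TCF and LEF factors and turns on Wnt target genes, and an adenoma can grow. Among these targets are feedback inhibitors of the pathway itself, crypt progenitor genes and cell cycle genes. The colon wall beside a tumor holds absorptive colonocytes, goblet cells and rare hormone cells on a connective tissue layer, over smooth muscle with its nerve plexus. In bulk tissue, fewer cells of a type and less RNA per cell cannot be told apart.

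A symbol here names a row of the count table, and a level is its CPM, a count scaled to one common library total over the tested rows. The libraries were made with a stranded kit, the strand setting of the counting is not given in the sources used here, and many rows seem to hold reads of the gene on the opposite strand. Rows that overlap an exon of an opposite-strand gene made up 19.3% of the rows matched to an annotation and held 77.9% of their counts in the control libraries. Among mitochondrial protein genes ND6 alone lies on the light strand. Its row held 22599 to 164225 counts in a library, and the 12 other mitochondrial protein rows together held 884 to 5698. Reads of a gene and of its opposite partner cannot be told apart within a row. For this reason the partner is named in what follows ("Pcsk7, opposite Tagln"), a gene list is described by its own rows and then by the rows on its opposite strand, and neither is a measured transcript. Counts on genes were 1071737 to 1471477 per control library, or 2.55% to 3.26% of the reads in a file. The Erbb2 row could not check the genotype labels for the same reason, and the controls carry no cre.

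Control tumors 2 and 3 differed from tumors 1, 4 and 5, so results are given with all libraries and, where that matters, without these tumors. Across tested rows the Spearman correlation of log2 CPM was 0.920 to 0.935 among tumors 1, 4 and 5, a description over rows that share their libraries. Tumor 2 correlated at 0.613 to 0.653 with the other tumors and at 0.587 to 0.635 with adjacent libraries. Tumor 3 correlated at 0.809 to 0.835 with tumors 1, 4 and 5 and at 0.779 to 0.880 with adjacent libraries. Tumor 2 had 0 counts in 15 of 18 rows of general epithelial genes and in 17 of 17 goblet cell rows, so the markers that define intestinal epithelium were almost absent from it. The 4 rows opposite B cell genes summed to 675 CPM in tumor 2 and to at most 61.4 CPM in any other control library, and the 3 rows opposite MHC class II genes summed to 2401 CPM against at most 238 CPM. The 2 rows opposite T and NK cell genes summed to 481 CPM in tumor 2 and to at most 21.5 CPM elsewhere. In tumor 3 the goblet cell rows summed to 669 CPM, within the adjacent range of 215 to 845 CPM, where tumors 1, 4 and 5 had 55.1 to 71.2 CPM.

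**Figure D1:**
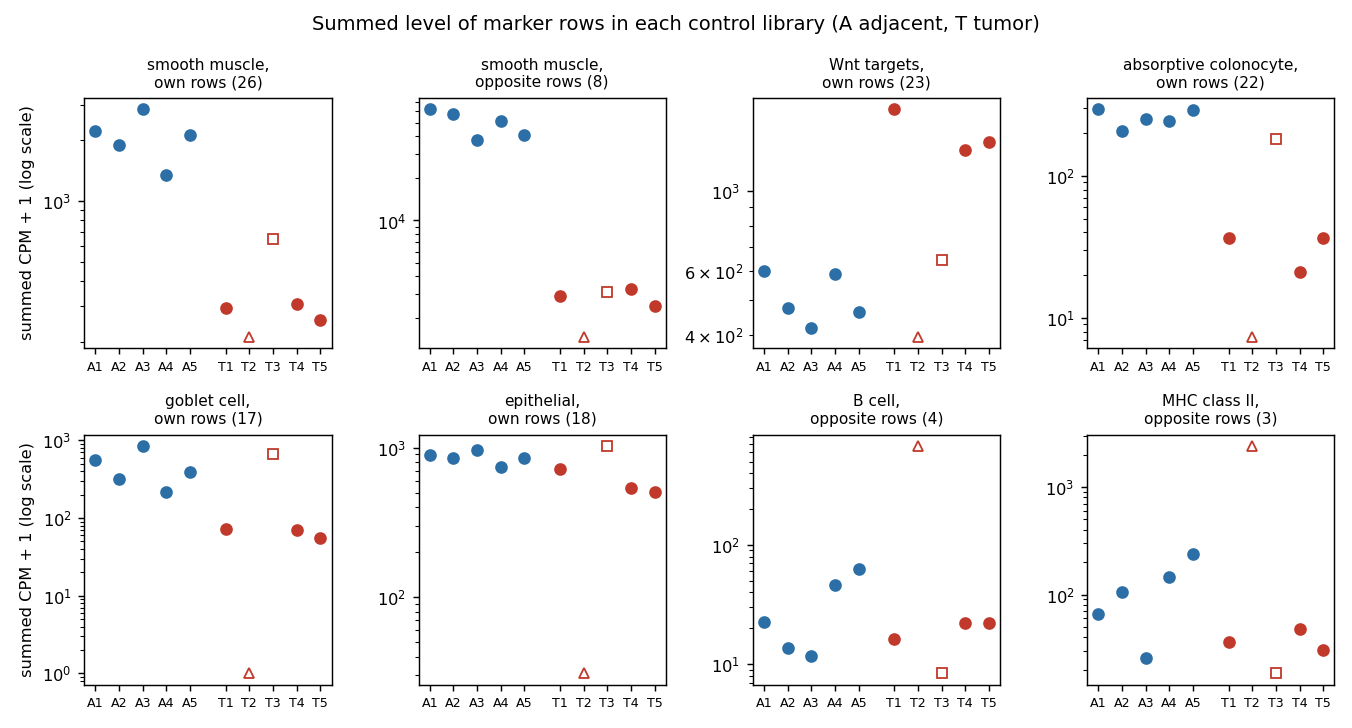
Summed CPM plus 1 (log axis) of marker rows in each control library, with the number of rows summed in brackets. A1 to A5 are adjacent libraries (blue) and T1 to T5 tumors (red), with tumor 2 as an open triangle and tumor 3 as an open square. Smooth muscle rows are lower in all 5 tumors, Wnt target rows are high in tumors 1, 4 and 5, and tumor 2 is low in epithelial rows and high in rows opposite B cell and MHC class II genes.

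The 6 rows that most set tumor 2 above the other tumors were Ms4a6c (2993 CPM against at most 19.0 CPM in the other tumors), Gm32313 (8046 against at most 113), BC051537 (1873 against at most 16.2), Fam149b (1274 against at most 16.6), A530088E08Rik (1117 against at most 13.8) and Gm41331 (764 against at most 2.76). BC051537 lies opposite H2-Oa, which encodes a chain of the MHC class II regulator H2-O of B cells. In tumor 3 the 6 such rows were Muc2 (483 CPM against at most 22.8 CPM), Rtl1 (1473 against at most 120), Prepl (498 against at most 41.5), Rasl12 (369 against at most 40.0), Reg3b (45.1 against at most 1.90) and Baat (41.4 against at most 0.847). Muc2 encodes the gel-forming mucin of goblet cells and Reg3b an antimicrobial lectin. Rasl12 lies opposite Slc51b, a subunit of the basolateral bile acid exporter, and Prepl opposite Slc3a1, a subunit of a transporter of basic amino acids. Adjacent libraries held 59.2 to 623 CPM of Muc2, 132 to 567 CPM of Rasl12 and 784 to 5165 CPM of Rtl1, so tumor 3 lay within the adjacent range in these rows. Reg3b was at 0 in all 5 adjacent libraries. These 12 rows were picked by their levels in single tumors and are given here as a description of those libraries.

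Of 7119 tested rows, 764 (10.7%) were higher in control tumors and 776 (10.9%) lower, by edgeR's quasi-likelihood test at a Benjamini-Hochberg adjusted p under 0.05. Without tumors 2 and 3, 1168 of 7946 rows (14.7%) were higher and 1376 (17.3%) lower, or 32.0% in either direction. With fewer tumors the filter asks for a row in fewer libraries, so 827 rows were tested only in that fit. A row that entered through the levels of a single group could hardly be called except as higher in that group. This also holds with all libraries for rows at or near 0 in a single tissue, such as Wif1 in adjacent tissue or Chrm2 in tumors. List counts and medians below are partly fixed by the filter where they hold such rows. Where a list gains tested rows in the fit without tumors 2 and 3, its second count is a description. Fitted to the 10 control libraries alone, 275 rows were higher and 318 lower. Of the 1540 rows called with all libraries, 1432 were called in the same direction without those tumors, 108 were not called, and 0 were called in the opposite direction. The median SD of log2 CPM over tested rows was 0.65 over 5 tumors, 0.34 over tumors 1, 4 and 5, and 0.48 over the adjacent libraries. The median log2 fold change of all tested rows was 0.07 with all libraries and -0.04 without tumors 2 and 3. Where a row is said to rise or fall by a value, the value is on the log2 scale.

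**Figure D2:**
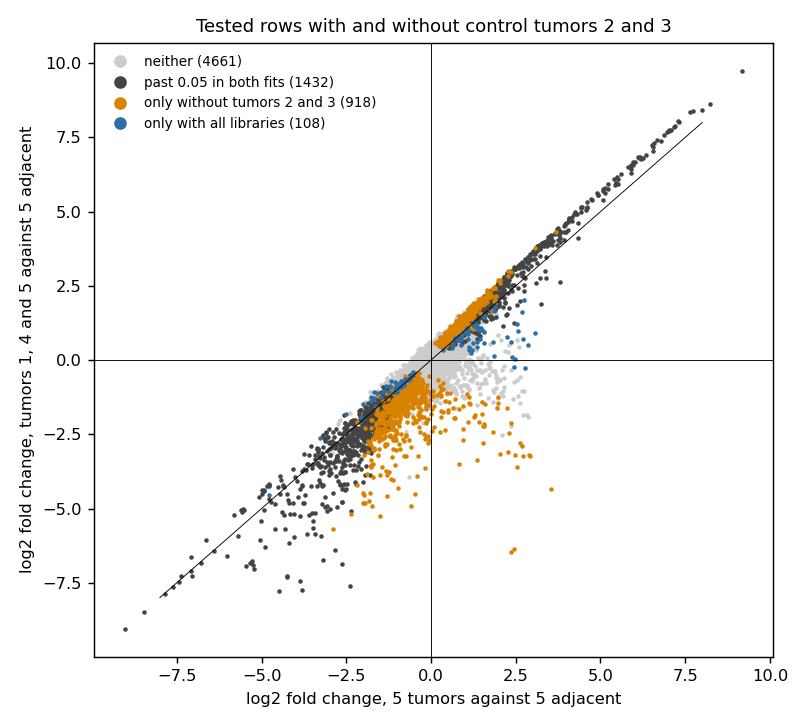
Log2 fold change of each row tested in both fits, with all 5 tumors (horizontal axis) and with tumors 1, 4 and 5 only (vertical axis), each against the 5 adjacent libraries. Colour gives the fit in which a row passed an adjusted p of 0.05: 1432 rows in both, 918 only without tumors 2 and 3, and 108 only with all libraries. The diagonal marks equal values. Most large differences lie below it, as rows that are lower or near 0 without tumors 2 and 3.

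Rows that changed at least 4-fold without overlap between the groups were ranked after leaving out predicted genes with no named partner. The most abundant of these that rose were Extl1, Arv1, Gm10684 and Basp1, and the most abundant that fell were Pcsk7, TrnS1, Eri2 and Hoxa11. Rows whose 5 tumors all lay above all 5 adjacent libraries were 3.96% of the tested rows, and rows with all 5 tumors below were 6.66%. With the call and the 4-fold size, 61 rows were higher and 237 lower, of which 44 and 177 were ranked. Among the higher rows with an informative name, the 10 most abundant in tumors also include Tmem132a, 5430405H02Rik, Gm11532, Gm13270, Msx1os and 1700071M16Rik. The other 6 of the most abundant ranked lower rows were Tcf7l1, Tmem252, Thra, Spaca4, Bvht and Smtn.

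Extl1 encodes a glycosyltransferase of heparan sulfate synthesis. Its level in tumors 1 to 5 was 1462, 57.2, 178, 757 and 1640.2 CPM and in adjacent libraries 1 to 5 34.5, 26.9, 16.1, 30.5 and 44.5 CPM. Tumors 2 and 3 were the lowest tumors, and both were above every adjacent library. The log2 fold change was 4.75 ± 0.67 SE (adjusted p = 7.92e-05), and 5.40 without tumors 2 and 3. Arv1, a lipid homeostasis gene beside Ttc13 on the opposite strand, was at 1141, 114, 251, 878 and 1009 CPM in the tumors and 46.4, 40.3, 27.5, 20.6 and 22.2 CPM in adjacent tissue, again with tumors 2 and 3 lowest, and its log2 fold change was 4.43 ± 0.49 SE (adjusted p = 6.18e-06). Basp1, a membrane-bound protein known from neuronal growth cones, was at 370.0, 249.6, 60.7, 451 and 471 CPM in the tumors and 36.5, 29.4, 15.3, 44.8 and 24 CPM beside them. Here tumor 2 kept a high level and tumor 3 alone was near the adjacent range. The log2 fold change of Basp1 was 3.42 ± 0.47 SE (adjusted p = 6.37e-05).

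The other 7 abundant higher rows rose by log2 fold changes of 2.17 to 6.18. Gm13270, opposite Cubn, the ileal and renal receptor for vitamin B12 bound to intrinsic factor, was at 195, 12.7, 44.1, 138 and 279 CPM in the tumors against 2.96, 1.68, 1.53, 2.69 and 0 CPM. Its adjacent levels were close to 0 in all 5 libraries, and the log2 fold change was 6.18 ± 0.74 SE (adjusted p = 1.55e-05). 5430405H02Rik, opposite Tgif2, a homeobox repressor of TGF-beta responses, had 233, 135, 51.5, 264 and 291 CPM in the tumors and 12.2 to 38.5 CPM in adjacent tissue (log2 fold change 2.93 ± 0.47 SE, adjusted p = 0.000265). Gm10684, opposite the leukocyte adhesion gene Jaml, had 151 to 495 CPM against 46.7 to 124 CPM (log2 fold change 2.29 ± 0.37 SE, adjusted p = 0.000251). Tmem132a, opposite the lysosomal peptide transporter Slc15a3, was highest in tumor 2, at 615 CPM, against 32.1 to 89.6 CPM in adjacent tissue (log2 fold change 2.18 ± 0.41 SE, adjusted p = 0.000885). Gm11532, opposite the zinc finger factor Sp6, and Msx1os, an antisense RNA named for Msx1, rose by 2.39 (adjusted p = 0.000251) and 2.65 (adjusted p = 0.000984). 1700071M16Rik, opposite Pla2g7, which inactivates platelet-activating factor, rose by 2.17 (adjusted p = 0.025), a call that ended without tumor 4 or adjacent library 1 or 5 (adjusted p = 0.0523 to 0.0591).

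**Figure D3:**
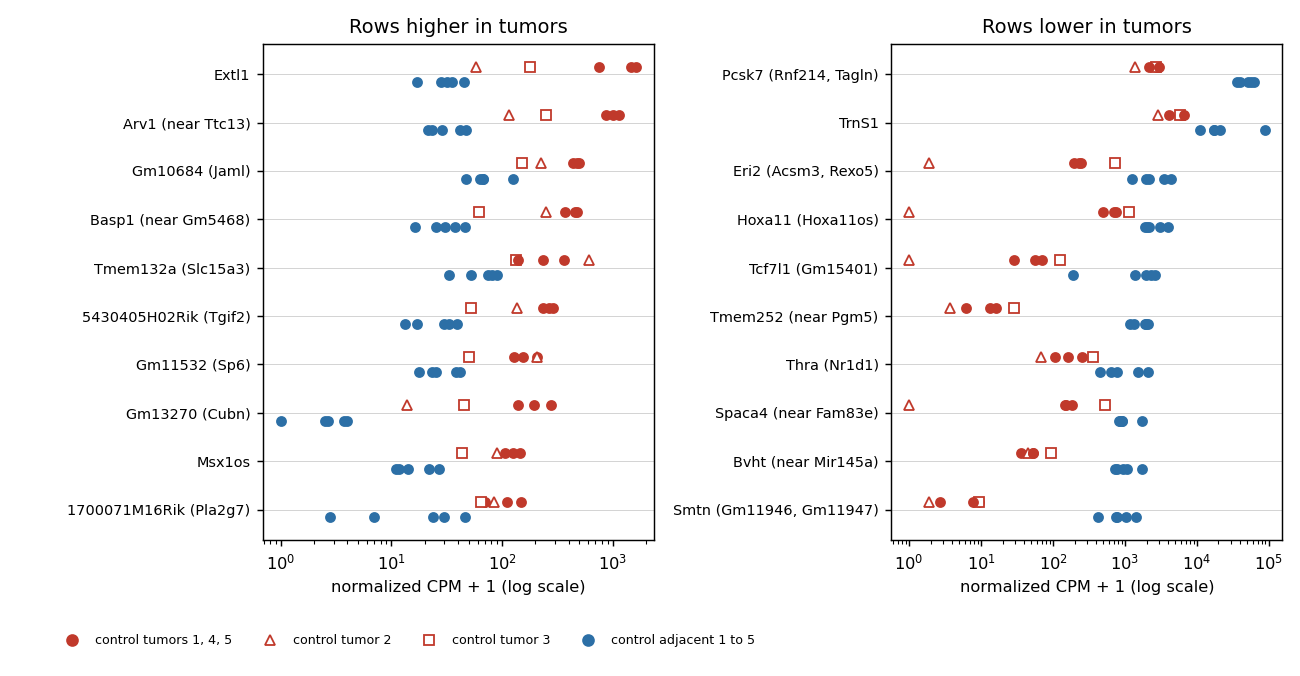
Normalized CPM plus 1 (log axis) in each control library for the 10 most abundant rows called higher and the 10 called lower in tumors. They were ranked among rows with at least a 4-fold change and no overlap between the groups, without predicted genes that have no named partner. Brackets give genes with an exon on the opposite strand, or near it. Filled red circles are tumors 1, 4 and 5, the open triangle tumor 2, the open square tumor 3 and blue circles the 5 adjacent libraries. In Extl1 and Arv1 tumors 2 and 3 lie between the other groups, and in Hoxa11, Tcf7l1 and Spaca4 tumor 2 is at 0.

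Smooth muscle rows fell. Of 26 smooth muscle rows 20 were tested, 16 fell, 0 rose and the median log2 fold change was -3.66, against 0.07 over all tested rows and a background of 10.9% called lower. Leaving out tumors 2 and 3, 17 of 20 fell (17.3% in the background), with a median of -3.88. The rows summed to 211 to 647 CPM in the tumors and to 1343 to 2851 CPM in adjacent tissue. The label of adjacent tissue names epithelium, and these libraries held the contractile genes of the muscle wall beside the epithelial rows, which summed to 742 to 965 CPM.

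Smtn encodes smoothelin, an actin-binding protein of contractile smooth muscle. It was at 8.38, 0.908, 8.28, 6.66 and 1.69 CPM in the tumors and 784, 756, 1427, 419 and 1032 CPM in adjacent tissue, a fall with a log2 fold change of -7.37 ± 0.46 SE (adjusted p = 2.29e-09). Myh11, the smooth muscle myosin heavy chain, was at 1.40, 0.908, 5.52, 2.86 and 2.54 CPM against 179, 144, 174, 80.7 and 125 CPM (log2 fold change -5.70 ± 0.44 SE, adjusted p = 4.51e-08). All 5 tumors were far below all 5 adjacent libraries in both rows. Chrm2, a muscarinic acetylcholine receptor of smooth muscle, was at 0 counts in all 5 tumors and at 52.3, 37, 11.5, 49.3 and 22.2 CPM beside them, so its level was at least 65.1-fold lower, taking 3 counts over the 5 tumors as the floor. Cnn1, the calponin of smooth muscle, had 0 to 2.76 CPM in the tumors and 17 to 83.9 CPM in adjacent tissue (log2 fold change -5.21 ± 0.59 SE, adjusted p = 6.32e-06).

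The classical markers of the tissue behaved alike: Acta2 (smooth muscle actin) had a log2 fold change of -3.79 ± 0.60 SE (adjusted p = 0.000248) and Des (desmin) of -5.25 ± 0.65 SE (adjusted p = 2.31e-05). Tagln (transgelin) fell less in its own row, by a log2 fold change of -1.0 ± 0.27 SE (adjusted p = 0.0114), from 404 to 642 CPM to 143 to 482 CPM. The call of the Tagln row ended with only the control libraries fitted. The Pcsk7 row, opposite Tagln and Rnf214, held 61836, 56514, 36579, 50743 and 40146 CPM in adjacent libraries and 2694, 1393, 2718, 2986 and 2163 CPM in the 5 tumors, and its log2 fold change was -4.36 ± 0.34 SE (adjusted p = 4.51e-08). It was the most abundant of these falls, and tumor 2 was the lowest tumor in it. These 3 markers were chosen after their values were seen. Of 6 tested rows opposite smooth muscle genes 4 fell (10.9% in the background) and 0 rose. Ttc23, opposite the intermediate filament gene Synm, was at 0.908 to 2.86 CPM against 19.7 to 58.9 CPM (log2 fold change -4.36 ± 0.42 SE, adjusted p = 7.35e-07). Gm15179, opposite Des, had 1 count in all tumors together, a ratio of 64.1 (95% exact counting interval 11.1 to 2572) between adjacent tissue and tumors, where the interval covers counting error only.

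Further rows of the fall with muscle genes as neighbours were Tmem252, near Pgm5, and Bvht, near Mir145a. Tmem252 was at 15.4, 2.72, 27.6, 12.4 and 5.08 CPM in tumors and 2110.5, 1931, 1161, 1942 and 1325 CPM in adjacent tissue (log2 fold change -7.06 ± 0.50 SE, adjusted p = 1.65e-08). Pgm5 encodes a protein of muscle adhesion plaques, and Mir145a a microRNA abundant in smooth muscle. Bvht was at 34.9, 43.6, 93.8, 52.4 and 52.5 CPM against 1078, 774, 1723, 724 and 939.6 CPM (log2 fold change -4.24 ± 0.34 SE, adjusted p = 4.85e-08). Rows of enteric neurons were thinly counted: none of 14 was tested, and they summed to 0 to 3.63 CPM in tumors and 2.69 to 12.8 CPM in adjacent tissue. The share of these differences that goes with how much muscle wall each sample held was not tested.

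Wnt target rows rose together. Of 12 tested rows (23 in the list) 8 rose and 0 fell, with a median log2 fold change of 3.18 and a background of 10.7% called higher. Notum, Wif1, Dkk2 and Prox1 were at or near 0 in all control adjacent libraries and could hardly be called lower. The count and the median rest in part on such rows. Without tumors 2 and 3, 11 of 14 rose (14.7% in the background), with a median of 3.33. Their summed level was 1298 to 1679 CPM in tumors 1, 4 and 5 and 416 to 598 CPM in adjacent tissue. Tumor 2, at 394 CPM, was below the adjacent range and tumor 3, at 644 CPM, just above it.

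Notum encodes a secreted enzyme that removes the lipid from Wnt ligands and so inhibits them. It was at 503, 3.63, 35, 290.4 and 419 CPM in tumors 1 to 5 and 3.95, 0.840, 0, 1.79 and 2.67 CPM in adjacent tissue. Tumors 1, 4 and 5 were the highest, tumor 3 was lower but above all adjacent libraries, and tumor 2 lay within the adjacent range. The log2 fold change was 7.07 ± 1.01 SE (adjusted p = 9.76e-05), and 7.76 without tumors 2 and 3. Wif1, a secreted inhibitor that binds Wnt ligands, was at 0 in all adjacent libraries and at 34.2, 0, 0, 11.4 and 16.1 CPM in the tumors, at least 26.2-fold higher. Dkk2, a modulator of the Wnt receptor complex, was at 25.8, 0, 3.68, 10.5 and 19.5 CPM against 0 to 0.987 CPM, a ratio of 24.6 (95% exact counting interval 8.09 to 121.8) with 3 counts in adjacent tissue. Axin2, a scaffold of the destruction complex, was at 40.5, 1.82, 1.84, 16.2 and 38.1 CPM against 1.97, 4.20, 3.82, 0 and 1.78 CPM (log2 fold change 3.0 ± 0.76 SE, adjusted p = 0.00802). The Axin2 call ended in a fit that blocked libraries of the same number (adjusted p = 0.0715). In Wif1, Dkk2 and Axin2 alike tumors 1, 4 and 5 were high, and tumor 2 was within the adjacent range. Wif1 and Axin2 were chosen after their values were seen.

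Lef1, a transcription factor that carries beta-catenin to its targets, followed another order. Its level was 23.7, 66.3, 3.68, 17.1 and 20.3 CPM in tumors 1 to 5 and 3.95, 0.840, 0.765, 4.48 and 2.67 CPM in adjacent tissue, highest in tumor 2. The log2 fold change was 3.35 ± 0.64 SE (adjusted p = 0.00111), and 3.0 (adjusted p = 9.36e-05) without tumors 2 and 3. Lef1 is also made by lymphocytes, and the rows opposite lymphocyte genes were highest in tumor 2. The part of these cells in the Lef1 level of tumor 2 was not tested.

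Rows on opposite strands at the same gene rose together at Prox1, and not at Ccnd1. Prox1 is a homeobox factor that is switched on in intestinal adenomas. Its own row was at 32.1, 0, 1.84, 19.99 and 25.4 CPM in tumors against 1 count in all adjacent libraries, and the opposite row Prox1os was at 78.9, 0, 27.6, 106 and 169 CPM against 0.987, 0.840, 2.29, 1.79 and 0 CPM (log2 fold change 5.87 ± 0.97 SE, adjusted p = 0.00038). Ccnd1 encodes cyclin D1. Its own row was at 85.2, 55.4, 99.3, 86.6 and 69.5 CPM in tumors and 102, 108, 82.6, 108 and 73 CPM in adjacent tissue (log2 fold change -0.26 ± 0.19 SE, adjusted p = 0.369). The row opposite Ccnd1, LTO1, held far more, at 3444, 1339, 2863, 4033 and 2945 CPM against 1508, 1258, 1202, 2013 and 1222 CPM, and rose by a log2 fold change of 1.02 ± 0.23 SE (adjusted p = 0.00367). Its tumor 2 lay within the adjacent range. Over all 1046 pairs of facing tested rows, 634 (60.6%) had the same sign, and of 70 pairs with both rows called 50 moved in the same direction and 20 in opposite directions.

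The largest rise among rows on the strand opposite a listed gene was at Mmp7, the matrilysin of Paneth cells and intestinal adenomas. Its opposite row AV064505 was at 5775, 7.26, 2395, 8146 and 6304 CPM in the tumors and 6.91, 0.840, 18.4, 6.27 and 5.34 CPM in adjacent tissue. Tumors 1, 3, 4 and 5 were all far above the adjacent libraries, and tumor 2 lay within their range. The log2 fold change was 9.19 ± 1.18 SE (adjusted p = 3.4e-05) and 9.75 without tumors 2 and 3. The Mmp7 row itself was at 11.2, 0, 0.920, 4.76 and 8.47 CPM in tumors and 0 in adjacent tissue, and was tested only without tumors 2 and 3, since it met the filter only through its tumor levels. Gm16201, opposite the metalloprotease gene Adam8, rose by 2.81 ± 0.48 SE (adjusted p = 0.000467). Of 21 rows of matrix proteases and their inhibitors 3 were tested and 0 passed. Without tumors 2 and 3, 4 of 6 rose (14.7% in the background). The rows tested only then include Mmp7, so this count is a description and no support for a rise.

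Both tested rows opposite genes of neutrophils and inflammatory cytokines rose, and so did 1 of 4 tested rows opposite genes of ERBB receptors, ligands and MAPK output, with a background of 10.7% called higher. Gm14023, opposite the cytokine gene Il1a, was at 13.3, 17.2, 9.20, 36.2 and 22.9 CPM in tumors and 0.987, 1.68, 0, 1.79 and 0 CPM in adjacent tissue (log2 fold change 4.35 ± 0.86 SE, adjusted p = 0.00153). All 5 tumors were above all 5 adjacent libraries. Il1bos, opposite Il1b, was at 0 to 7.62 CPM against 2 counts in all adjacent libraries, a ratio of 10.8 (95% exact counting interval 2.66 to 94.8). Ccdc85b, opposite Fosl1, an AP-1 subunit induced by MAPK signalling, was at 169.6, 9.08, 173, 308 and 289.7 CPM against 17.8, 10.1, 19.1, 19.7 and 11.6 CPM (log2 fold change 3.59 ± 0.70 SE, adjusted p = 0.00127), with tumor 2 below the adjacent range. Gm49428, opposite the squamous keratin Krt6a, was at 24.4, 0, 0, 129 and 49.98 CPM in the tumors against 2 counts in adjacent tissue, a ratio of 113 (95% exact counting interval 30.9 to 939). Tumors 2 and 3 were at 0 in it. The own rows of Il1a and Fosl1 were not called.

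Rows of mature colonocytes fell. Of 8 tested absorptive colonocyte rows 7 fell (10.9% in the background) and 0 rose, with a median log2 fold change of -2.49. Without tumors 2 and 3, 10 of 13 fell (17.3% in the background), with a median of -2.93. Car4, a carbonic anhydrase of the colonocyte surface, was at 0, 0.908, 4.60, 0 and 0 CPM in tumors and 16.8, 9.24, 6.88, 28.7 and 22.2 CPM in adjacent tissue (log2 fold change -3.88 ± 0.75 SE, adjusted p = 0.00116). Scnn1a, a subunit of the epithelial sodium channel, was at 5.58, 0, 7.36, 3.81 and 7.62 CPM against 22.7, 16, 28.3, 29.6 and 21.4 CPM (log2 fold change -2.24 ± 0.44 SE, adjusted p = 0.00128). In both rows every tumor was below every adjacent library. Cdhr5, a cadherin of microvilli, was at 1.40, 0, 25.8, 5.71 and 2.54 CPM against 60.2, 23.5, 32.1, 33.2 and 33.8 CPM (log2 fold change -2.38 ± 0.65 SE, adjusted p = 0.012), and here tumor 3 was within the adjacent range. The Cdhr5 call ended with only the control libraries fitted (adjusted p = 0.079). Atp12a, the colonic potassium pump, had 2 counts in all tumors and 1.53 to 16.9 CPM in adjacent tissue, a ratio of 27.5 (95% exact counting interval 7.25 to 232.7). Slc26a3, the chloride and bicarbonate exchanger, which was chosen after its values were seen, had 3 counts in all tumors, and its call ended without adjacent library 5 (adjusted p = 0.0512). Slc16a1, a carrier of lactate and butyrate, fell by a log2 fold change of -1.98 ± 0.53 SE (adjusted p = 0.0109), as the only call among 5 tested rows of fatty acid oxidation and ketogenesis.

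Of 10 tested goblet cell rows 3 fell and 0 rose with all libraries (10.9% called lower in the background), with a median log2 fold change of -1.41. Leaving out tumors 2 and 3, 8 of 10 fell (17.3% in the background), with a median of -2.53. Tumor 3 was described above by its goblet cell rows, so this second count is not independent of leaving it out. Clca1, a secreted goblet cell protein, was at 2.79, 0, 20.2, 0.952 and 7.62 CPM in the tumors and 79.96, 58, 57.4, 65.4 and 106 CPM in adjacent tissue (log2 fold change -3.53 ± 0.76 SE, adjusted p = 0.0026). Fcgbp, a mucus gel protein, was at 6.28, 0, 24.8, 13.3 and 7.62 CPM against 119, 63.8, 32.9, 44.8 and 59.6 CPM (log2 fold change -2.62 ± 0.62 SE, adjusted p = 0.00521). Tumor 2 was at 0 in both, and tumor 3 was the highest tumor in both. Tff3, the trefoil peptide of goblet cells, fell by 2.22 ± 0.64 SE (adjusted p = 0.0178), a call that ended without adjacent library 1 (adjusted p = 0.072). Muc2 was at 20.9, 0, 483, 22.8 and 15.2 CPM against 202, 96.6, 623, 59.2 and 148 CPM. Its log2 fold change was -1.06 ± 1.01 SE (adjusted p = 0.482) with all libraries and -3.53 without tumors 2 and 3. Muc2 was picked above by its level in tumor 3, so the second value is a description, given without a p-value. Bcas1os2, opposite the goblet cell gene Bcas1, was at 0 to 161 CPM against 163 to 272 CPM (log2 fold change -1.94 ± 0.64 SE, adjusted p = 0.0343), and its call ended without tumor 1, 4 or 5 or adjacent library 3 or 5 (adjusted p = 0.0515 to 0.0843).

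Antimicrobial rows went in both directions. Lyz1, the lysozyme of Paneth cells, was at 39.1, 3.63, 6.44, 18.1 and 12.7 CPM in the tumors against 1 count in all adjacent libraries, a ratio of 99.2 (95% exact counting interval 17.4 to 3958). All 5 tumors held the row, tumor 1 the most. Mptx1, a mucosal pentraxin, went the other way, with 1 count in all tumors and 16.8, 15.1, 0, 17 and 12.5 CPM in adjacent tissue, a ratio of 69.2 (95% exact counting interval 12.0 to 2773). Pigr, the receptor that carries IgA across the epithelium, was at 105, 5.45, 308, 116 and 91.5 CPM against 822, 603, 429, 829.9 and 951 CPM (log2 fold change -2.54 ± 0.59 SE, adjusted p = 0.00437). Every tumor was below every adjacent library in the Pigr row, and tumor 3 was the highest tumor. In all, 1 of 5 tested Paneth-type and antimicrobial rows rose and 2 fell (10.7% and 10.9% in the background). Gm42875, opposite Rimbp2, a synaptic active zone gene of the enteroendocrine list, was at 0 in tumors 1, 2, 4 and 5 and at 3.68 CPM in tumor 3, against 8.88, 18.5, 8.41, 21.5 and 17.8 CPM in adjacent tissue (log2 fold change -4.26 ± 0.67 SE, adjusted p = 0.000226).

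Of 16 tested rows of general epithelial genes 2 fell and 0 rose, a share near the 10.9% of all rows called lower, and the median log2 fold change was -0.66. Without tumors 2 and 3, 5 of 17 fell (17.3% in the background) and 1 rose, with a median of -0.70. Tumor 2 was described above by its epithelial rows, so this second count is not independent of leaving it out. Epcam, the adhesion molecule of all gut epithelium, was at 105, 0, 84.6, 60.9 and 62.7 CPM in tumors and 49.4, 44.5, 37.5, 46.6 and 35.6 CPM in adjacent tissue. Tumor 2 was at 0 and the other 4 tumors were above all adjacent libraries. Its log2 fold change was 0.55 ± 0.57 SE (adjusted p = 0.523), and 0.83 without tumors 2 and 3. Krt18, a keratin of simple epithelium, was the row that rose without tumors 2 and 3, by 1.21. The values of Epcam and Krt18 without those tumors are descriptions for the same reason, given without p-values. Epcam and Krt18 were chosen after their values were seen. Cdx1, a transcription factor of intestinal identity and 1 of the rows that fell, had a log2 fold change of -1.62 ± 0.53 SE (adjusted p = 0.0335), and its call ended without tumor 1, 4 or 5 or adjacent library 1 or 3 (adjusted p = 0.0519 to 0.079).

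Of 33 proliferation rows 9 were tested, 4 rose (10.7% in the background) and 0 fell, with a median log2 fold change of 0.69. When tumors 2 and 3 were left out, 4 rose and 2 fell, against 14.7% and 17.3% of all rows. Mki67, the marker of cycling cells, was at 35.6, 22.7, 28.5, 24.8 and 31.3 CPM in the tumors and 12.8, 14.3, 16.8, 12.5 and 13.3 CPM in adjacent tissue, with all tumors above all adjacent libraries (log2 fold change 1.03 ± 0.24 SE, adjusted p = 0.00434). Ccna2, which encodes cyclin A2 and lies opposite Exosc9, was at 578, 385, 426, 653 and 556 CPM against 309, 323, 291, 418 and 274 CPM (log2 fold change 0.69 ± 0.18 SE, adjusted p = 0.01). Tumor 2 was the lowest tumor in both rows. Aurka, a spindle kinase, rose by 0.84 ± 0.27 SE (adjusted p = 0.0297), a call that ended without tumor 1, 4 or 5 or adjacent library 2, 3 or 5 (adjusted p = 0.0606 to 0.0841). Top2a, a DNA topoisomerase of dividing cells, rose by 1.86 ± 0.60 SE (adjusted p = 0.032), a call that ended without tumor 1 or adjacent library 2, 4 or 5 (adjusted p = 0.0509 to 0.148).

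Of 4 tested rows opposite proliferation genes 3 rose and 0 fell (10.7% called higher in the background). Cdc23, a subunit of the anaphase-promoting complex opposite the mitotic kinesin gene Kif20a, was at 1833, 561, 1354, 1821 and 1869.7 CPM in tumors and 583, 569, 679, 517 and 247 CPM in adjacent tissue (log2 fold change 1.52 ± 0.29 SE, adjusted p = 0.00102). Tumor 2 was the only tumor within the adjacent range. Exosc9, opposite Ccna2, was at 1417, 408, 1465, 1450.0 and 1337 CPM against 697, 571, 859.9, 684 and 289 CPM (log2 fold change 0.97 ± 0.31 SE, adjusted p = 0.0319), and its call ended without tumor 1, 4 or 5 or adjacent library 2 or 5 (adjusted p = 0.0616 to 0.0809). The summed level of the 33 rows was 2493, 1354, 3970, 2600 and 2469 CPM in tumors 1 to 5 and 3376 to 5632 CPM in adjacent tissue. In the adjacent libraries and tumor 3 most of it was the Plk1 row, which lies opposite Gm44985. In tumors 1, 2, 4 and 5 the other rows together held more than Plk1. The lower sum in tumors came from the Plk1 row and not from the list as a whole. Plk1 encodes a mitotic kinase. Its row was at 1078, 0.908, 2972, 1115 and 1152 CPM in tumors and 3181, 2549, 4865, 2528 and 3013 CPM in adjacent tissue (log2 fold change -1.35 ± 0.74 SE, adjusted p = 0.198), and fell by 1.54 (adjusted p = 0.00448) without tumors 2 and 3. The other fall without those tumors was Ccne1, the cyclin E1 row, at 0, 335, 1.84, 2.86 and 0 CPM in tumors and 4.94, 5.88, 3.82, 10.8 and 18.7 CPM in adjacent tissue, where tumor 2 was the highest of the 10 libraries. Its log2 fold change was 2.93 ± 1.23 SE (adjusted p = 0.0956) with all libraries and -3.24 (adjusted p = 0.0145) without tumors 2 and 3. Plk1 and Ccne1 were chosen after their values were seen.

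Transcription factor rows of the gut moved in both directions, with 3 of 11 tested rising and 3 falling, against 10.7% and 10.9% of all rows. Gata5, a zinc finger factor of endoderm, was at 35.6, 0, 2.76, 26.7 and 31.3 CPM in tumors against 1 count in all adjacent libraries, a ratio of 117 (95% exact counting interval 20.6 to 4657). Its opposite row Gata5os was at 201, 0, 37.7, 205 and 256 CPM against 1.97, 0, 5.35, 0.896 and 1.78 CPM (log2 fold change 6.02 ± 0.94 SE, adjusted p = 0.000226). At both rows tumors 1, 4 and 5 were high, tumor 3 lower and tumor 2 at 0. Sox17, a factor of early endoderm, was at 55.1, 0, 1.84, 34.3 and 34.7 CPM against 0 to 1.97 CPM (log2 fold change 4.71 ± 1.01 SE, adjusted p = 0.00271), again with tumors 1, 4 and 5 high, tumor 3 low and tumor 2 at 0. Tcfl5, a helix-loop-helix factor that faces the collagen gene Col9a3, was at 33.5, 5.45, 8.28, 21.9 and 27.1 CPM against 2 counts in adjacent tissue, a ratio of 58.0 (95% exact counting interval 15.7 to 484). Mir1905, opposite Mex3a, an RNA-binding protein of crypt progenitors, rose from 1.78 to 7.17 CPM to 12.7 to 120.3 CPM (log2 fold change 3.92 ± 0.63 SE, adjusted p = 0.000265).

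Among the falls, Tcf7l1, a TCF factor known mainly as a repressor of Wnt targets, was at 27.9, 0, 126, 70.5 and 55.9 CPM in tumors and 1397, 1991, 189, 2292 and 2635 CPM in adjacent tissue (log2 fold change -4.92 ± 0.83 SE, adjusted p = 0.000408). Adjacent library 3 was well below the other 4 and still above every tumor. The facing row Gm15401 was at 50.3, 15.4, 57.9, 48.6 and 47.4 CPM against 211, 231, 73.4, 292 and 278 CPM (log2 fold change -2.30 ± 0.36 SE, adjusted p = 0.000226), with the same low adjacent library. Sox4, a progenitor factor of the crypt stem and progenitor list, was at 81, 13.6, 37.7, 78.1 and 103 CPM against 21.7, 10.1, 13, 12.5 and 8.01 CPM (log2 fold change 2.26 ± 0.41 SE, adjusted p = 0.000663), the only call among 5 tested rows of that list. Of 4 tested fetal-like and regenerative rows 2 rose and 1 fell (10.7% and 10.9% in the background). Krt7, a keratin of ducts, rose by 2.61 ± 0.68 SE (adjusted p = 0.00977) and Clu (clusterin) by 2.37 ± 0.82 SE (adjusted p = 0.0427), a call of Clu that ended without tumor 1, 2, 4 or 5 or adjacent library 2, 3, 4 or 5 (adjusted p = 0.0524 to 0.0919). The Krt7 call ended in the fit that blocked libraries of the same number (adjusted p = 0.0614). Ccn2, a matrix protein induced by YAP, fell by 1.69 ± 0.37 SE (adjusted p = 0.00312).

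Hox rows, which encode the positional homeobox factors of the gut axis and of its mesenchyme, fell or did not pass. Of 39 rows 12 were tested, 6 fell (10.9% in the background) and 0 rose, with a median log2 fold change of -1.73. When tumors 2 and 3 were left out, 7 of 15 fell (17.3% in the background). Hoxb6 had 1 count in all tumors and 19.7, 13.4, 7.65, 10.8 and 12.5 CPM in adjacent tissue, a ratio of 73.3 (95% exact counting interval 12.7 to 2934). Hoxb7 was at 0, 1.82, 0.920, 0 and 0.847 CPM against 37.5, 18.5, 13, 13.4 and 13.3 CPM (log2 fold change -4.60 ± 0.61 SE, adjusted p = 0.000105), and Hoxb2 at 0 to 1.69 CPM against 6.72 to 58.9 CPM (log2 fold change -4.78 ± 0.72 SE, adjusted p = 0.000157). The groups did not overlap in these 3 rows. Hoxb3 and its facing row Hoxb3os fell, with log2 fold changes of -2.70 ± 0.51 SE (adjusted p = 0.00103) and -1.66 ± 0.32 SE (adjusted p = 0.00126). The abundant Hoxa11 row, opposite Hoxa11os, was at 763, 0, 1151, 503 and 698 CPM against 2054, 1886, 3076, 2155 and 3920.2 CPM (log2 fold change -2.07 ± 0.71 SE, adjusted p = 0.0419), and its call ended without tumor 1, 4 or 5 or adjacent library 1, 3, 4 or 5 (adjusted p = 0.0527 to 0.0876). Muscle and other mesenchyme of the gut wall express many Hox genes, and the smooth muscle rows fell in the same tumors. The part of the muscle in the Hox levels was not tested.

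Of the remaining abundant falls, Eri2, opposite the acyl-CoA synthetase gene Acsm3 and Rexo5, was at 193, 0.908, 732, 245 and 230.4 CPM in tumors and 2158, 3543, 1268, 4311 and 1971 CPM in adjacent tissue (log2 fold change -3.24 ± 0.72 SE, adjusted p = 0.00343). Thra, the thyroid hormone receptor alpha, lies opposite Nr1d1, a repressor of the circadian clock, and was at 104, 67.2, 362, 159.9 and 254 CPM against 773, 444, 630.4, 1534 and 2126 CPM (log2 fold change -2.54 ± 0.44 SE, adjusted p = 0.000528). Tumor 2 was the lowest library in both rows and tumor 3 the highest tumor. Spaca4, near Fam83e, was at 144, 0, 523, 149 and 186 CPM against 859, 899, 912, 836 and 1739 CPM (log2 fold change -2.39 ± 0.67 SE, adjusted p = 0.0151). The Spaca4 call ended with only the control libraries fitted and with no low count filter (adjusted p at most 0.113). The TrnS1 row, named for a mitochondrial serine tRNA, fell by 2.61 ± 0.52 SE (adjusted p = 0.00159), with 87742 CPM in adjacent library 5 and at most 20979.8 CPM in the others. It was not matched to the annotation, so what lies opposite it is not known here.

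In the Notch pathway, by which neighbouring crypt cells set absorptive and secretory fates, 4 of 10 tested rows rose and 1 fell, against 10.7% and 10.9% of all rows. Hes6, a helix-loop-helix factor, was at 45.4, 3.63, 11, 27.6 and 39 CPM in tumors and 11.8, 8.40, 5.35, 5.38 and 6.23 CPM in adjacent tissue (log2 fold change 1.77 ± 0.47 SE, adjusted p = 0.0111). The Hes6 call ended with only the control libraries fitted (adjusted p = 0.0711). Lfng, a glycosyltransferase that tunes the receptors, was at 11.9, 34.5, 1.84, 4.76 and 8.47 CPM against 0.987, 2.52, 2.29, 2.69 and 3.56 CPM (log2 fold change 2.30 ± 0.66 SE, adjusted p = 0.0164), highest in tumor 2, and its call ended without tumor 2 (adjusted p = 0.0747). Dtx1, a ubiquitin ligase of the pathway that lymphocytes also express, was at 14.7, 246, 2.76, 5.71 and 11.9 CPM against 4.94, 2.52, 1.53, 12.5 and 16.9 CPM (log2 fold change 2.86 ± 0.95 SE, adjusted p = 0.0357). The Dtx1 rise rested on tumor 2, and without it the call ended: without tumor 2 or adjacent library 1, 2 or 3 (adjusted p = 0.0722 to 0.823). Without tumors 2 and 3 the value was 0.51 (adjusted p = 0.561). The ligand Dll1 fell by 2.07 ± 0.59 SE (adjusted p = 0.0165), a call that ended without tumor 1 or adjacent library 2 (adjusted p = 0.0501 to 0.0567). The 2 tested rows opposite Notch genes both rose. 0610009E02Rik, opposite the receptor gene Notch1, was at 1574, 954, 423, 1321 and 1283 CPM against 607, 506, 356, 704 and 353 CPM (log2 fold change 1.14 ± 0.26 SE, adjusted p = 0.00401), while the Notch1 row itself was at 13.6 to 36.4 CPM against 31.1 to 40.5 CPM (adjusted p = 0.42). Gm14207, opposite the ligand gene Dll4, rose by 1.35 ± 0.34 SE (adjusted p = 0.00837).

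BMP signals oppose proliferation in the upper crypt. Of 11 tested BMP and TGF-beta rows 1 rose and 0 fell, a share near the 10.7% of all rows called higher. The rise was Bmp7, a ligand, at 12.6, 0.908, 4.60, 2.86 and 11.9 CPM in tumors against 3 counts in adjacent tissue, a ratio of 13.4 (95% exact counting interval 4.28 to 67.8). A330033J07Rik, opposite the BMP target Id4, was at 9.77, 0, 45.1, 10.5 and 18.6 CPM against 139, 124, 162, 157 and 116 CPM (log2 fold change -3.05 ± 0.53 SE, adjusted p = 0.000486), with every tumor below every adjacent library. Of 8 tested rows of ERBB receptors, ligands and MAPK output 1 rose and 0 fell, also near that background. Nrg4, a ligand of ERBB4 that lies opposite Fbxo22, was at 289.7, 304, 259, 402 and 374 CPM against 178, 182, 197, 234 and 200.2 CPM (log2 fold change 0.72 ± 0.16 SE, adjusted p = 0.00299). All 5 tumors were above all 5 adjacent libraries. Egfr was at 4.89, 0.908, 17.5, 3.81 and 6.78 CPM against 20.7, 11.8, 24.5, 8.07 and 17.8 CPM (log2 fold change -1.29 ± 0.49 SE, adjusted p = 0.0642), and -1.67 (adjusted p = 0.00792) without tumors 2 and 3.

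**Figure D4:**
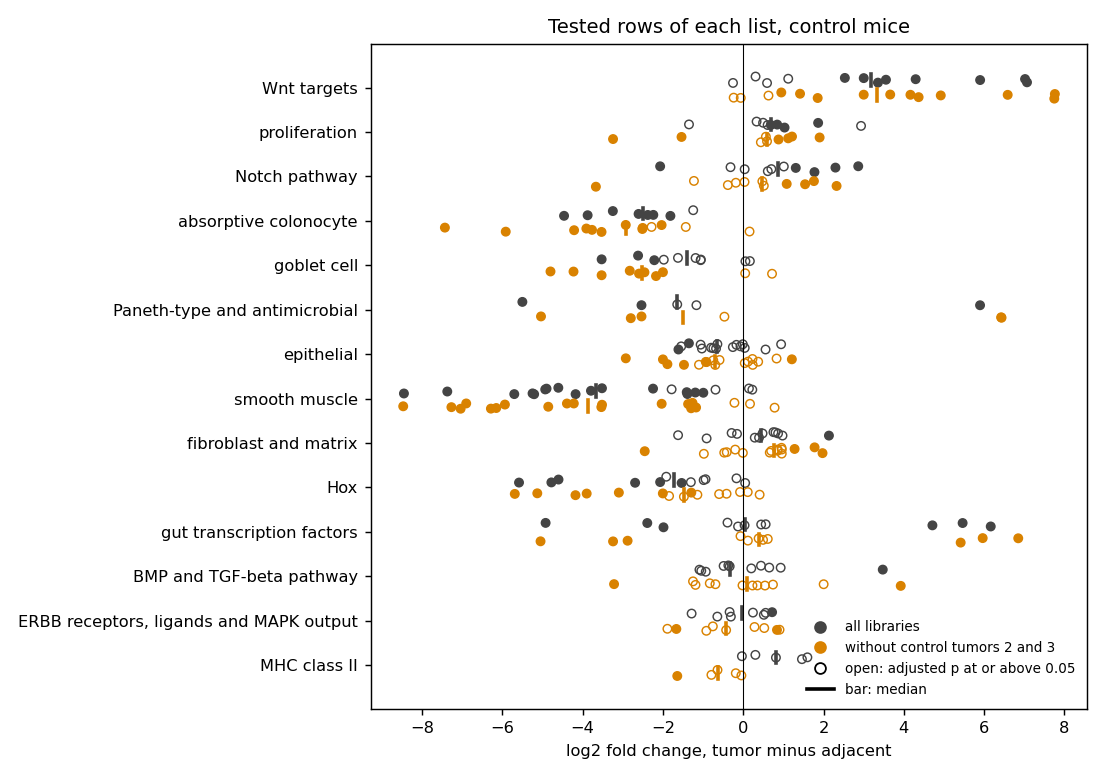
Log2 fold change, tumor minus adjacent, of the tested own rows of 14 gene lists, with all libraries (grey) and without tumors 2 and 3 (orange). Filled points have an adjusted p under 0.05 (edgeR) and vertical bars are medians. Wnt target rows lie to the right, with a median of 3.18, and smooth muscle (-3.66) and absorptive colonocyte rows (-2.49) to the left. The median of MHC class II rows changes sign between the fits.

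Of 12 tested fibroblast and matrix rows 1 rose and 0 fell, near the 10.7% of all rows called higher, with a median log2 fold change of 0.44. When tumors 2 and 3 were left out, 3 of 16 rose (14.7% in the background) and 1 fell. The rise was Vim (vimentin), at 25.1, 45.4, 13.8, 15.2 and 11 CPM in tumors and 10.9, 4.20, 3.06, 2.69 and 4.45 CPM in adjacent tissue (log2 fold change 2.13 ± 0.50 SE, adjusted p = 0.00491). All 5 tumors were above all 5 adjacent libraries, and tumor 2 was the highest. The mast cell chymase Cma1 was at 17.5, 0, 0, 11.4 and 27.1 CPM against 0.987, 2.52, 0, 2.69 and 0 CPM (log2 fold change 3.12 ± 0.97 SE, adjusted p = 0.0256), 0 in tumors 2 and 3, and its call ended without tumor 1 or 5 or adjacent library 1, 3 or 5 (adjusted p = 0.0514 to 0.0883). Of 5 tested MHC class II rows 0 passed with all libraries, and their median log2 fold change was 0.81 with all libraries and -0.64 without tumors 2 and 3, so its sign rests on those tumors. BC051537 was at 4.19, 1873, 0.920, 16.2 and 4.24 CPM in tumors and 23.7, 31.9, 2.29, 86.9 and 151 CPM in adjacent tissue. Its log2 fold change was 2.68 (adjusted p = 0.152) with all libraries and -2.88 without tumors 2 and 3. Dexi, opposite Ciita, the master regulator of MHC class II genes, changed sign in the same way, from 1.5 (adjusted p = 0.248) to -1.83. BC051537 was picked above by its level in tumor 2, and both rows belong to the opposite MHC class II sum that set that tumor apart. Their values without tumors 2 and 3 are therefore descriptions, given without p-values. Tumors 1, 3, 4 and 5 were at 4.60 to 12.4 CPM in the Dexi row and tumor 2 at 482 CPM.

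Among the rows that passed only without tumors 2 and 3, the most abundant higher row was Lgi4, opposite Fxyd3, a regulator of the sodium pump, at 4759, 0.908, 1343, 3919.7 and 3416 CPM in tumors and 971, 879, 936, 898 and 602 CPM in adjacent tissue. Tumor 2 held almost none and the other 4 tumors were above all adjacent libraries, so that the log2 fold change was 1.65 ± 0.74 SE (adjusted p = 0.118) with all libraries and 2.23 (adjusted p = 3.11e-08) without tumors 2 and 3. The other 4 higher rows, Gm33923, Gm51448, Gm15737 (opposite Adamts9) and Gm51486, rose by 2.35 to 2.42 without those tumors, with Gm33923 at 2.38 and Gm15737 at 2.42. The 5 most abundant lower rows were Gm33947, Armc9, Yif1b, Fcamr and Gm12251. Armc9 was at 21.6, 787, 35, 28.6 and 25.4 CPM against 847, 795, 66.6, 1259 and 1614 CPM, and Fcamr, which encodes an Fc receptor for IgM and IgA, at 46.1, 797, 297, 64.7 and 60.2 CPM against 564, 642, 666, 665 and 901 CPM. In both, tumor 2 was within the adjacent range. Armc9 fell by 5.18 (adjusted p = 0.00031) and Fcamr fell by 3.60 (adjusted p = 0.000372) without tumors 2 and 3. Yif1b was instead high in tumor 3, at 996 CPM against 94.9 to 175 CPM in tumors 1, 4 and 5 (log2 fold change without tumors 2 and 3 -2.61, adjusted p = 6.18e-06). Gm12251 was also highest in tumor 3, with 772 CPM in tumor 3 and 79.6 to 108 CPM in tumors 1, 4 and 5 (-2.57, adjusted p = 1.63e-05). Gm33947 fell by 2.09 (adjusted p = 0.0168). Rtl1, which faces a cluster of microRNAs, was at 120.1, 45.4, 1473, 106 and 119 CPM against 2856, 784, 5165, 948 and 1854 CPM, and its call with all libraries (log2 fold change -2.64 ± 0.92 SE, adjusted p = 0.0457) ended without tumor 1, 2, 4 or 5 or adjacent library 1, 3 or 5 (adjusted p = 0.064 to 0.123).

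In Erbb2-deficient mice 929 rows (13.0%) were higher in tumors and 1030 (14.5%) lower. Their libraries also enter the control comparison, through the shared estimate of spread, the filter of low rows and the scaling. Of the rows called in control mice, 576 of the higher (75.4%, and 62.0% of the higher rows of Erbb2-deficient mice) and 638 of the lower (82.2%, and 61.9%) were called in the same direction there. No row passed edgeR's interaction test, which asks whether the difference between tumor and adjacent tissue differs between the genotypes (0 calls, with 290 rows or 4.07% at an unadjusted p under 0.05). The log2 fold change in Erbb2-deficient mice was 10.59 for AV064505 (adjusted p = 1.31e-05), 8.34 for Notum (adjusted p = 1.95e-05), -5.69 for Smtn (adjusted p = 6.02e-08) and -3.92 for Pcsk7 (adjusted p = 2.21e-07). Each had the sign seen in control mice. Ccn2, which fell in control mice, had -0.28 there (adjusted p = 0.591), and Dtx1 had -0.07 (adjusted p = 0.966).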

How the data were processed

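Each library has 1 file of unnormalized counts that the authors deposited, with 46329 rows named by gene symbol and 5 summary rows for reads on no single gene. The submitters' processing notes name genome build mm39 and the tools HISAT2 2.2.1, HTSeq 2.0.2, Trimmomatic and DESeq2, with settings not given in the sources used here. Summary rows entered neither library sizes nor tests. Reads on no feature made up 78.6% to 84.5% of the reads of a control library, and the median tested row had a mean of 25.3 counts per control library (15.2 without an opposite exon), so counting error is large in many rows. Opposite-strand partners came from GENCODE M21 (GRCm38), another build than that of the counts, used for names and overlaps only, and 34571 rows matched.

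Low rows were removed by group with filterByExpr (minimum count 10), and TMM factors scaled the libraries. All 20 libraries entered a model of 4 group means in edgeR version 4.0.16, R version 4.3.3 (quasi-likelihood test, robust, Benjamini-Hochberg adjustment at 0.05), and the standard error was the log2 fold change divided by the square root of F. CPM was computed from the deposited counts over tested rows after TMM scaling. Alternatives used limma version 3.58.1 and DESeq2 version 1.42.0. On simulated counts for this comparison (6735 rows), 9 of 92 rows changed 2-fold and 57 of 93 changed 4-fold were called, with 2 false calls. Few of the simulated rows were changed, while 21.6% of tested rows were called in the data. The Benjamini-Hochberg cutoff depends on how many rows change, so these figures describe the simulation and are not the power of the real comparison.

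The rows examined, the 30 gene lists, the tests and the rule for named rows were chosen with earlier results of these data known. The rule named, per direction, the 10 rows of highest mean CPM in the higher group among called rows with a 4-fold change and no overlap between groups, skipping predicted names without a named partner. It also allowed up to 4 rows per list with at least 3 tested, up to 3 opposite-strand rows per list, 5 rows per direction called only without tumors 2 and 3, and 6 rows each for tumors 2 and 3. Not every row so allowed is described, and some are not reported here.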

Additional observations from a re-analysis of the deposited data

Results flagged for a closer look

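Within each group of 5 control libraries, a library is listed here where the gap between it and its nearest neighbour was more than 0.71 of the group's whole range on a log2 scale (Dixon's 95% limit). This was done for 110 rows and 15 summed lists in both groups, and chance alone lists about 1 in 20 groups. The share of the range is given for each.

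Control tumor 2 accounts for 18 of the rows and 5 of the sums. It was lowest in Exosc9 (0.928), Gm33947 (0.9), Hoxa11 (0.875), Epcam (0.874), Krt18 (0.858), Plk1 (0.857) and Gm15401 (0.845). It was also lowest in Lgi4 (0.833), Ccdc85b (0.824), AV064505 (0.821), Spaca4 (0.78), Eri2 (0.767), Gm51486 (0.747) and Cdc23 (0.732), and in the summed epithelial rows (0.798). It was highest in Armc9 (0.871), Dexi (0.813), Ccne1 (0.807) and Gm15179 (1, the other tumors at 0). It was highest in the sums of rows opposite T and NK cell (0.912), MHC class II (0.805) and B cell genes (0.778), and of the own rows of MHC class II genes (0.821).

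Control tumor 3 was highest in Rtl1 (0.724) and Tagln (0.719), and in Gm42875 and Slc26a3 (1 in both, the other tumors at 0). A share of 1, with the other 4 libraries at 0, was also found for Hoxb6 in tumor 1, Mptx1 in tumor 4 and Atp12a in tumor 5.

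Among adjacent libraries, library 3 was lowest in Mptx1 (0.886), Armc9 (0.776), Gm15401 (0.764) and Tcf7l1 (0.759). It was highest in Bcas1os2 (0.876) and Tagln (0.82), and the only library with counts in Prox1 and Tcfl5 (1 in both). Adjacent library 5 was highest in Spaca4 (0.882) and lowest in Lgi4 (0.79), Slc16a1 (0.747) and Cdc23 (0.73). Adjacent library 4 was the only library with a count in Gata5 (1) and lowest in the summed enteric neuron rows (0.768), and adjacent library 1 the only library with a count in Lyz1 (1).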

How the results depend on the processing

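Of 90 named rows called with all libraries, 62 stayed called in the same direction in each of the 25 alternative settings that tested them, and 1 changed sign (Dtx1, -0.056 with the replicate block and without tumors 2 and 3). With only the control libraries 11 of the called rows lost their call, with the replicate block 7 and against a 1.5-fold change 17. Single rows are marked above mainly where leaving out 1 library ended the call. Of 20 named rows not called, 16 were called in the same direction in some setting. They include the rows named because they were called without tumors 2 and 3, for which this was fixed in advance. BC051537, Dexi and Ccne1 were called in some setting with the opposite sign. Ccne1 is also among the 16, through a call in 1 setting, and its sign was reversed in 7. The count of higher rows was 764 and ranged from 572 to 1034 when single control libraries were left out. It was 275 with only the control libraries, 255 with only rows without an opposite exon (fewer rows tested), 323 in a test against a 1.5-fold change and 1165 with limma voom and sample weights. Without tumors 2 and 3 it was 1168, with voom 1284, with DESeq2 1205 and with only control libraries 925. The count of lower rows was 776 and ranged from 616 to 1093 with single libraries left out. In the same settings it was 318, 277, 449 and 1283, and without tumors 2 and 3 it was 1376, with voom 1313, with DESeq2 1372 and with only control libraries 1171. The settings with tumors 2 and 3 left out under a block, voom or DESeq2 were chosen after seeing the data. Apart from settings built to test fewer rows, larger changes or fewer samples, the cause was not tested.

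Deviations of same-numbered control libraries correlated at 0.370, 0.331 and 0.150 for numbers 1, 3 and 4, each highest with its own number, and at 0.0050 and -0.115 for numbers 2 and 5. As not every pair was above 0.1 and the labels state no pairing, the numbers were not taken as pairs. With a replicate block 625 rows were higher and 803 lower, and without tumors 2 and 3 as well 1094 were higher and 1242 lower.

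Signs turned in 3 named rows that were not called. With single control libraries left out, BC051537 ranged from -3.24 to 3.45, Dexi from -2.05 to 1.88 and Ccne1 from -2.93 to 3.46. BC051537 had -2.88 without tumors 2 and 3, -3.24 without tumor 2, -2.91 with only control libraries and without both, -1.75 with the block, -2.07 with voom, and without both -3.29 with the block, -2.01 with voom and -2.85 with DESeq2. Dexi had, in the same order, -1.83, -2.05, -1.84, -0.81, -1.61, -1.87, -1.62 and -1.82. Ccne1 had -3.25 without both, -2.93 without tumor 2, -0.82 with the block, -2.70 with voom, and without both -3.60 with the block, -2.90 with voom and -3.35 with DESeq2.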
